A study of Mus musculus with 6 samples.

Results

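The hedgehog pathway genes described here are 9 genes of the 46517 listed in the files: the ligand Shh, its receptor Ptch1, the decoy receptor Hhip, the co-receptor Boc, the signal transducer Smo, the inhibitor Sufu and the transcription factors Gli1, Gli2 and Gli3. They were picked out by gene symbol, although the choice was made with earlier results of these data known. All 9 passed the filter on low counts. RNA was sequenced from hair germ stem cells sorted from mouse back skin at postnatal day 60, 3 days after hair had been pulled out to start a new hair cycle. Cells were sorted by a YFP reporter, integrin b1, CD34, Sca-1 and Pcadherin. The double knockout (LEF1_TCF7dKO; Lef1fl/fl and Tcf7-/-), the single knockout (LEF1cKO; Lef1fl/fl) and the wild type (WT; neither allele) had 2 libraries each. Mice of all 3 groups, WT included, also carried the Sox9-CreER driver and the reporter R26-lox-stop-lox-YFP. Lef1 could be deleted in cells in which the Sox9-driven, inducible Cre had acted, whereas Tcf7 was lost in every cell of the mouse, including cells outside the epithelium.

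In this pathway the secreted ligand binds Ptch1, which then no longer holds back Smo, and active Smo at the primary cilium frees Gli proteins from Sufu so that they switch on target genes. Ptch1, Hhip and Gli1 are themselves classical targets, and the proteins of the first pair dampen the signal that induces them. In a new hair cycle, Shh made by the activated epithelium is known to drive proliferation of neighbouring epithelial cells and to signal to the dermal papilla, the cluster of specialised fibroblasts under the follicle. The LEF1 and TCF7 proteins bind DNA and recruit beta-catenin, the effector of Wnt signals. The comparisons ask how transcript levels differ when Lef1 is deleted and when both factors are missing.

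Libraries held 40480694 and 42987210 expected counts in the double knockout, 49656967 and 54283055 in LEF1cKO and 52935357 and 63220022 in WT. Levels below are in TPM, a transcript's share of the library scaled for transcript length, with means ± SD over 2 libraries. Changes are log2 fold changes ± SE from edgeR's quasi-likelihood test on expected counts of 19640 genes, and a gene "rose" or "fell" where its Benjamini-Hochberg adjusted p was under 0.05. Nothing in the labels says whether a group's libraries came from separate animals, so the p-values cover only the spread between these libraries and that spread may be technical.

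Transcripts of the targeted genes were still present in the knockouts. Lef1 had 9.22 and 9.42 TPM in the double knockout, 13.5 and 8.37 TPM in LEF1cKO and 21.4 and 20.4 TPM in WT, so that both knockouts lay below WT. In the double knockout it fell by 1.27 ± 0.25 against WT (adjusted p = 0.0122), which was lost in each of the 4 fits that left out a library of these 2 groups (adjusted p = 0.0626 and 0.0581 without WT replicates 1 and 2, 0.0827 and 0.0558 without double-knockout replicates 1 and 2). In LEF1cKO against WT the difference of −0.92 ± 0.25 did not pass (adjusted p = 0.282), whereas it passed without LEF1cKO replicate 1 (adjusted p = 0.0317) and by DESeq2 (0.0387). Tcf7 had 13.7 and 18.0 TPM in the double knockout, 29.3 and 27.8 TPM in LEF1cKO and 26.9 and 36.01 TPM in WT, and in the double knockout fell by 1.37 ± 0.21 on the log2 scale against WT (adjusted p = 0.00641). The labels do not name the deleted exons and the counts pool all exons of a gene, so these levels check the labels only in part.

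The libraries carried the keratins and transcription factors of follicle epithelium in every group, with Krt5 at 6522 and 8258 TPM in the double knockout, 4862 and 5970 TPM in LEF1cKO and 4936 and 5128 TPM in WT. Cdh3, which encodes the P-cadherin used in the sort, was at 65.9 and 85.9 TPM in the double knockout, 134 and 116 TPM in LEF1cKO and 134 and 130.1 TPM in WT. The 11 hair germ and bulge markers did not move as one in the double knockout against WT: Krt14, Krt15, Cd34 and Itga6 rose, while Sox9, Krt17, Lhx2, Cdh3 and Lgr5 fell. These 4 rises and 5 falls became 1 and 1 without WT replicate 1 or double-knockout replicate 1, 0 and 0 without WT replicate 2, and 2 and 4 without double-knockout replicate 2.

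The members lie on 8 chromosomes of GRCm38 and all are protein-coding. Shh is at chr5:28456815-28467256 on the minus strand, Ptch1 at chr13:63508328-63573598 (minus), Hhip at chr8:79965851-80058006 (minus) and Boc at chr16:44485049-44558897 (minus). Smo is at chr6:29735503-29761365 (plus) and Sufu at chr19:46396896-46488804 (plus). Gli1 is at chr10:127329882-127341974 (minus), Gli2 at chr1:118834132-119053619 (minus) and Gli3 at chr13:15463235-15730026 (plus). The sources used here do not give whether the counting used the strand of the reads, so reads from partly overlapping genes on the other strand could be shared. Of the overlapping genes with a level, the highest were Arhgap9 at Gli1, with at most 5.38 TPM, and the pseudogene Gm13717 on the same strand as Smo, with at most 6.41 TPM.

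RefSeq promoter windows of 250 bases before the annotated start (GRCm38.p6) were at hand for 6 members. Of these, Hhip, Smo, Ptch1 and Gli3 fell in the double knockout against each of the other groups, and the windows of Hhip and Smo are shown because, of these 4, they hold the Gli core on the gene's own strand; that of Gli3 holds it on the other strand and that of Ptch1, itself a classical target, holds none. The Ptch1 window (chr13:63565736-63565985) and the Gli3 window (chr13:15463473-15463722) lie within the gene spans given above. They thus precede a start inside the span, not its outermost one. Capitals mark CCACCC, the core of the sequence that Gli proteins bind, and both windows are written along the gene's own strand.
Hhip, chr8:80058009-80058258, minus strand: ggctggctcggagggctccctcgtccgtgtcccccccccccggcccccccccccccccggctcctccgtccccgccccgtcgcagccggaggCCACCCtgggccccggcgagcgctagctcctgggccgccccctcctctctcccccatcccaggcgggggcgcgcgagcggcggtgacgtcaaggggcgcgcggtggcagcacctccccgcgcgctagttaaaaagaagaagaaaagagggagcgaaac
Smo, chr6:29735247-29735496, plus strand: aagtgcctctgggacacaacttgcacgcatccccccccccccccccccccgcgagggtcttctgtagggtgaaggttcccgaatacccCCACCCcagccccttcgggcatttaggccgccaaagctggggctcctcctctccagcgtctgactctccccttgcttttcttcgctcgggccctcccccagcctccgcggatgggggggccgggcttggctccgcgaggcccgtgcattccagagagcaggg
The core began 158 bases before the start in Hhip and 162 bases before it in Smo, and the windows held 76.0% and 68.4% G or C, against a median of 52.4% over all promoters in the table. On either strand the core was in the windows of 4 of the 6 members, Hhip, Smo, Gli2 and Gli3, and in 28.1% of all 32851 windows. The Gli2 and Gli3 windows also held more G or C (67.2% and 72.8%) than the median, as did those of Ptch1 (78.4%) and Sufu (54.0%), which lack the core. Windows were not matched for G or C, so these shares do not show an enrichment. The full Gli consensus GACCACCCA, which contains the core, was in 0 of the 6 and in 0.225% of all windows. The TCF/LEF motif CTTTGAT was likewise in 0 of the 6 and in 3.21% of all. A match describes these letters in this window and is not a measured binding site.

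All 3 genotypes held transcripts from ligand to target. Gli1, Ptch1 and Smo were far above the ligand in each, whereas the target Hhip was below it in the double knockout and WT and overlapped it in LEF1cKO. In the double knockout Gli1 averaged 79.5 ± 31.5 TPM, Smo 68.3 ± 10.4 TPM, Ptch1 64.4 ± 22.3 TPM and Boc 53.6 ± 14.2 TPM, and the ranges of neighbours in that order overlapped. Gli2 (26.2 ± 7.22 TPM), Sufu (16.5 ± 2.35 TPM), Gli3 (10.6 ± 0.827 TPM), Shh (5.94 ± 0.0707 TPM) and Hhip (0.720 ± 0.311 TPM) followed, each separate from the next. In LEF1cKO the order from the top was Ptch1 (200.4 ± 9.82 TPM), Gli1 (172 ± 19.8 TPM) and Smo (129 ± 5.13 TPM), with no overlap between neighbours. Below them Gli2 (48.0 ± 6.49 TPM) overlapped Boc (39.0 ± 8.59 TPM), Sufu (21.5 ± 2.199 TPM) overlapped Gli3 (21.0 ± 2.87 TPM), and Hhip (9.52 ± 1.33 TPM) overlapped Shh (8.64 ± 1.53 TPM). In WT Gli1 (152 ± 12.4 TPM), Ptch1 (146 ± 20.8 TPM) and Smo (132 ± 4.73 TPM) overlapped as neighbours at the top, and so did Gli2 (31.5 ± 3.84 TPM) and Boc (29.8 ± 1.34 TPM). Sufu (20.1 ± 0.530 TPM), Gli3 (17.5 ± 0.856 TPM), Shh (13.1 ± 0.919 TPM) and Hhip (4.06 ± 0.842 TPM) came last, without overlap. These overlaps compare ranges over a group's libraries, and both WT libraries ranked Gli1, Ptch1 and Smo in that order. In each double-knockout library Boc was below Gli1, Smo and Ptch1. The nearest was Ptch1 in replicate 1 (43.6 against 48.7 TPM) and Smo in replicate 2 (63.7 against 75.7 TPM). Boc thus stood nearer to the most abundant members in the double knockout than in LEF1cKO and WT, where it was well below them.

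**Figure D1:**
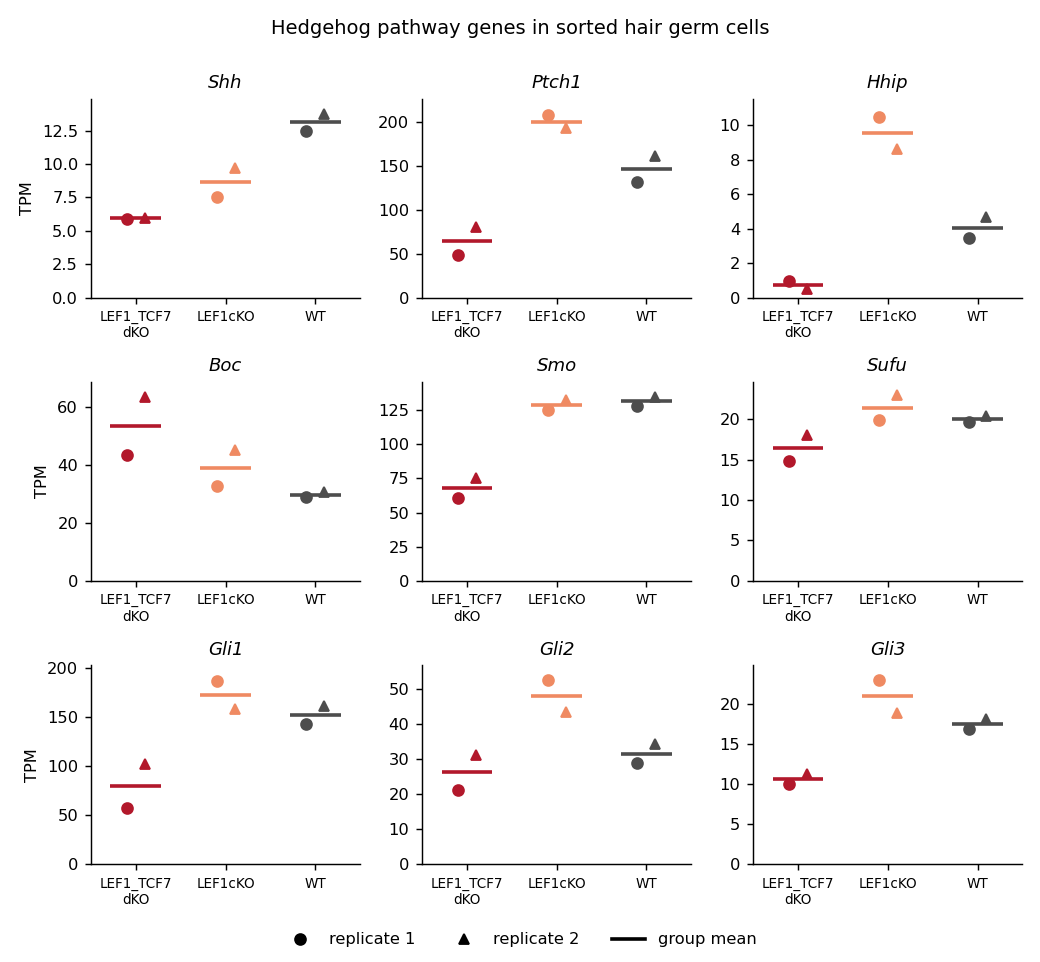
TPM of each hedgehog gene in each library, with the double knockout on the left, LEF1cKO in the middle and WT on the right of each panel; circles are replicate 1, triangles replicate 2 and bars the mean of 2 libraries. Hhip lies at 0.94 and 0.50 TPM in the double knockout, below both other groups, while Boc at 43.6 and 63.7 TPM lies above WT.

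Against WT, the double knockout had lower levels of most of the pathway. Shh, Ptch1, Hhip, Smo, Gli1 and Gli3 fell and Boc rose, which is 7 of 9 members called, where 37.6% of all tested genes were called (19.6% lower and 18.0% higher). Gli2 and Sufu were not called. The median change of the 9 members was −1.07, against 0.01 over all tested genes, and the libraries of the groups did not overlap for 8 of 9 members, as for 74.1% of all genes. Shh, Smo and Hhip passed in all 6 fits that left out a library. The number of members called was 4 without WT replicate 1, 3 without WT replicate 2, 5 without double-knockout replicate 1 and 7 without double-knockout replicate 2 or either LEF1cKO library. Calls over all tested genes also became fewer in each fit without a WT or a double-knockout library, so such losses were not particular to the members. In bulk RNA, fewer cells that express a gene and less RNA per cell cannot be told apart.

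Against LEF1cKO, 7 of 9 members fell in the double knockout and 0 rose, where 25.2% of all tested genes were called (14.1% lower and 11.2% higher). Those were Shh, Ptch1, Hhip, Smo, Gli1, Gli2 and Gli3, while Sufu and Boc were not called. The median change was −0.97, against 0.01 over all genes, and 8 of 9 members did not overlap, as for 64.3% of all genes. Without double-knockout replicate 1 the median change of the members was −0.79, against 0 over all genes. These calls depended on the double-knockout library labelled replicate 1: without it 0 members passed, with adjusted p of 0.0777 to 0.149 for the 7 lost calls, and 1 of 20389 genes passed at all. The count was 4 without either WT library or without LEF1cKO replicate 1, 6 without LEF1cKO replicate 2 and 7 without double-knockout replicate 2. Both double-knockout contrasts share the same double-knockout libraries, so their calls are not independent of each other.

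Between LEF1cKO and WT, 0 of 9 members passed by edgeR, where 0.601% of all genes were called. Unadjusted p was under 0.05 for Shh and Hhip, and DESeq2 called these 2, Shh lower (−0.70, adjusted p = 0.00832) and Hhip higher (1.10, adjusted p = 0.00441) in LEF1cKO. The libraries did not overlap for 6 of 9 members, Shh being lower and Ptch1, Hhip, Boc, Gli2 and Gli3 higher in LEF1cKO, as for 41.7% of all genes. The median change was 0.19, against 0.01 over all genes.

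**Figure D2:**
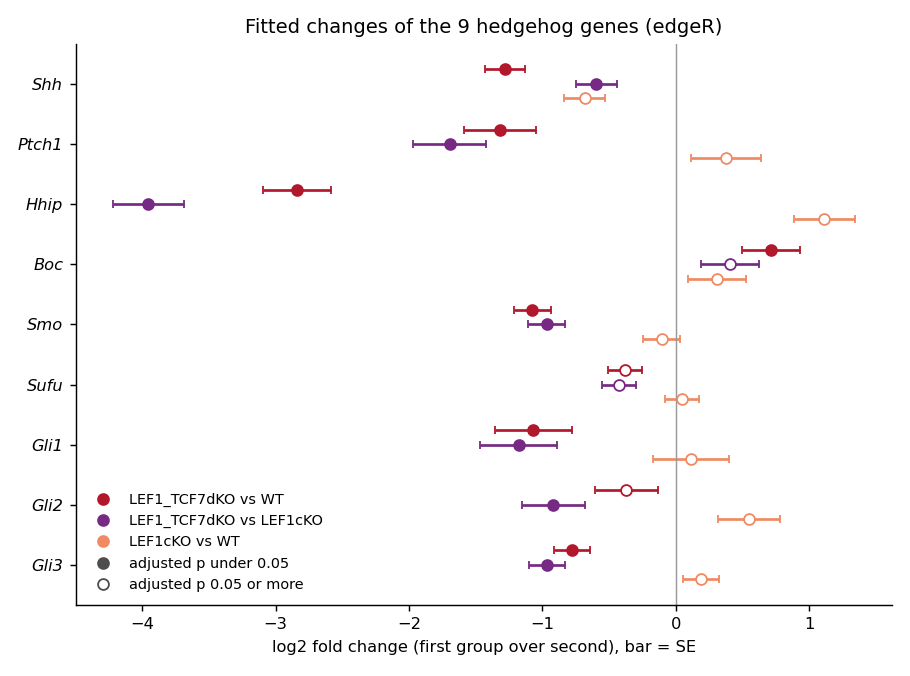
Log2 fold change of each hedgehog gene (first-named group over second; bars are SE from the edgeR fit of 6 libraries) for the double knockout against WT, the double knockout against LEF1cKO and LEF1cKO against WT; filled points passed an adjusted p of 0.05. Hhip has the lowest values in both double-knockout contrasts (−2.84 and −3.95) and the highest in LEF1cKO against WT (1.11, open), and Boc is the member with positive values in all 3.

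Shh encodes the ligand. It had 5.89 and 5.99 TPM in the double knockout, 7.55 and 9.72 TPM in LEF1cKO and 12.5 and 13.8 TPM in WT. The 3 groups stood in separate steps, with no overlap between any pair. Shh fell in the double knockout by 1.28 ± 0.15 against WT (adjusted p = 0.00408), a 2.43-fold lower level. Against LEF1cKO it fell by 0.60 ± 0.15 (adjusted p = 0.0372), and this smaller difference was lost in 5 of the 6 fits without a library. There adjusted p was 0.102 and 0.108 without WT replicates 1 and 2, 0.0646 without LEF1cKO replicate 2, and 0.149 and 0.0874 without double-knockout replicates 1 and 2. It was also lost with limma on log2(TPM + 1) (adjusted p = 0.103) or log2(TPM + 0.1) (0.0868) and when only those 2 groups were fitted (0.102). In LEF1cKO against WT the difference was −0.69 ± 0.15 (adjusted p = 0.184).

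Ptch1, the receptor and a classical target, had 48.7 and 80.2 TPM in the double knockout, 207 and 193 TPM in LEF1cKO and 131 and 161 TPM in WT. The double knockout was lowest and LEF1cKO highest, with no overlap. Ptch1 fell by 1.32 ± 0.27 against WT (adjusted p = 0.0135), which was lost without WT replicate 2 (0.0814). Against LEF1cKO it fell by 1.70 ± 0.27, or 3.24-fold (adjusted p = 0.0138), lost without LEF1cKO replicate 1 (0.0532) or double-knockout replicate 1 (0.0780). LEF1cKO and WT differed by 0.38 ± 0.26 (adjusted p = 0.753).

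Hhip encodes a membrane protein that binds the ligand and keeps it from the receptor, and it showed the widest range of the 9 genes. It had 0.94 and 0.50 TPM in the double knockout (44.0 and 45.2 expected counts), 10.5 and 8.58 TPM in LEF1cKO (875 and 775 counts) and 3.46 and 4.65 TPM in WT (332 and 521 counts). Each group was separate from the others, with the knockouts on opposite sides of WT. Hhip fell in the double knockout by 2.84 ± 0.26 against WT, or 7.16-fold (adjusted p = 0.00271), and it fell by 3.95 ± 0.27 against LEF1cKO, or 15.5-fold (adjusted p = 0.0107). The second call was lost without double-knockout replicate 1 (adjusted p = 0.0777), although the change there was −3.96. In LEF1cKO it was 2.16-fold higher than in WT (1.11 ± 0.23), which did not pass by edgeR (adjusted p = 0.165). The mean transcript length that RSEM assigned to Hhip was 2004 and 3521 nt in the double knockout against 2842 and 2814 nt in LEF1cKO and 2934 and 2905 nt in WT. The similar counts but unlike TPM of the double-knockout libraries go with that difference in length.

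Boc, a cell-surface co-receptor that helps the ligand bind, moved the other way. It had 43.6 and 63.7 TPM in the double knockout, 32.9 and 45.1 TPM in LEF1cKO and 28.8 and 30.7 TPM in WT. Every double-knockout and LEF1cKO library was above both WT libraries, and the knockouts overlapped each other. Boc rose in the double knockout against WT by 0.71 ± 0.22 (adjusted p = 0.0448). It no longer passed without WT replicate 1 (0.178), WT replicate 2 (0.158) or double-knockout replicate 2 (0.174, at a change of 0.38). Against LEF1cKO the difference was 0.41 ± 0.22 (adjusted p = 0.206), and between LEF1cKO and WT 0.31 ± 0.22 (adjusted p = 0.753).

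Smo encodes the transmembrane protein that carries the signal into the cell. It had 61.0 and 75.7 TPM in the double knockout, 125 and 132 TPM in LEF1cKO and 128 and 135 TPM in WT. The double-knockout libraries were far below the rest, while LEF1cKO and WT overlapped. Smo fell by 1.08 ± 0.14 against WT (adjusted p = 0.00470), in every fit without a library, and by 0.97 ± 0.14 against LEF1cKO (adjusted p = 0.0121), lost without double-knockout replicate 1 (0.0777). LEF1cKO and WT differed by −0.11 ± 0.14 (adjusted p = 0.900).

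Sufu, which holds Gli proteins in the cytoplasm, had 14.8 and 18.1 TPM in the double knockout, 19.9 and 23.0 TPM in LEF1cKO and 19.7 and 20.5 TPM in WT. The double knockout was lower without overlap, by a small margin. Neither the difference from WT (−0.38 ± 0.13, adjusted p = 0.0601) nor that from LEF1cKO (−0.43 ± 0.13, adjusted p = 0.0565) passed. Both passed without double-knockout replicate 2 (adjusted p = 0.0307 at −0.56, and 0.0417 at −0.60), and the second also by DESeq2 (adjusted p = 0.0421). LEF1cKO and WT differed by 0.04 ± 0.13 (adjusted p = 0.964).

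The Gli genes encode the zinc finger factors that read out the signal. Gli1, an activator and classical target, had 57.2 and 102 TPM in the double knockout, 186 and 158 TPM in LEF1cKO and 143 and 161 TPM in WT. The double-knockout libraries were lowest but differed widely from each other, and LEF1cKO overlapped WT. Gli1 fell by 1.07 ± 0.29 against WT (adjusted p = 0.0318), lost without WT replicate 1 (0.0909), WT replicate 2 (0.143) or double-knockout replicate 1 (0.0798, where the change was −0.68). Against LEF1cKO it fell by 1.18 ± 0.29 (adjusted p = 0.0340). Leaving out WT replicate 1 (0.0641), WT replicate 2 (0.0659), LEF1cKO replicate 1 (0.139) or double-knockout replicate 1 (0.0960) ended that call, as did fitting only those 2 groups (0.0578). In LEF1cKO against WT the difference was 0.11 ± 0.29 (adjusted p = 0.958), and its sign turned without LEF1cKO replicate 1 (−0.06).

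Gli2, the main activator at the start of a response in mouse, had 21.1 and 31.3 TPM in the double knockout, 52.5 and 43.4 TPM in LEF1cKO and 28.8 and 34.2 TPM in WT. The double knockout overlapped WT, and LEF1cKO was above both. The difference between double knockout and WT was −0.37 ± 0.23 (adjusted p = 0.254). Against LEF1cKO, Gli2 fell by 0.92 ± 0.23 (adjusted p = 0.0373). This ended without WT replicate 1 (0.0694), WT replicate 2 (0.0716), LEF1cKO replicate 1 (0.158) or double-knockout replicate 1 (0.134), and when only those 2 groups were fitted (0.0610). LEF1cKO and WT differed by 0.55 ± 0.23 (adjusted p = 0.545).

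Gli3, which is mostly processed into a repressor when ligand is absent, had 10.02 and 11.2 TPM in the double knockout, 23.0 and 18.9 TPM in LEF1cKO and 16.9 and 18.1 TPM in WT. The groups were separate, with the double knockout lowest and LEF1cKO highest. Gli3 fell by 0.78 ± 0.13 against WT (adjusted p = 0.00816), lost without WT replicate 1 (0.0534), WT replicate 2 (0.0621) or double-knockout replicate 1 (0.0599). It fell by 0.97 ± 0.13 against LEF1cKO (adjusted p = 0.0116), lost without double-knockout replicate 1 (0.0808). LEF1cKO and WT differed by 0.19 ± 0.13 (adjusted p = 0.751).

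Ratios of TPM within a library describe the balance of the members; they were given no test. Boc stood at 0.762 and 0.626 times the Gli1 level in the double knockout, 0.177 and 0.285 times in LEF1cKO and 0.201 and 0.191 times in WT. The double-knockout libraries were thus both above every other library. Ptch1 was at 0.799 and 1.06 times the Smo level in the double knockout, 1.66 and 1.46 times in LEF1cKO and 1.02 and 1.19 times in WT, so LEF1cKO stood highest and the other groups overlapped. Hhip was at 0.0193 and 0.00624 times the Ptch1 level in the double knockout, 0.0504 and 0.0443 times in LEF1cKO and 0.0264 and 0.0290 times in WT. The 2 classical feedback targets therefore did not keep 1 ratio. Of the summed TPM of the Gli genes, Gli1 made up 64.8% and 70.5% in the double knockout, 71.2% and 71.8% in LEF1cKO and 75.8% and 75.5% in WT. Gli2 made up 23.9% and 21.7% in the double knockout, 20.1% and 19.6% in LEF1cKO and 15.2% and 16.1% in WT, a separate step for each genotype. Gli3 overlapped between groups, with 11.3% and 7.76% in the double knockout, 8.77% and 8.57% in LEF1cKO and 8.94% and 8.49% in WT.

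The double-knockout libraries were not alike in pathway level. The 9 members summed to 263 and 388 TPM in the double knockout, 665 and 633 TPM in LEF1cKO and 513 and 578 TPM in WT. Replicate 1 of the double knockout was lower than replicate 2 for 8 of 9 members, all but Hhip. In LEF1cKO replicate 1 was lower for 4 of 9, and in WT for 9 of 9.

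Over the 6 libraries, likeness of pattern was described by the root mean square distance between log2 CPM values, each gene centred on its own mean, where 0 is an identical pattern. Among members, the closest pairs were Smo and Gli3 (0.187), Smo and Gli1 (0.208) and Ptch1 and Gli1 (0.215), and the farthest was Hhip and Boc (1.88). Of 10469 other genes with a mean of at least 5 TPM, those closest to Gli1 were Kif7 (0.0850), Scnn1b (0.103) and Irx1 (0.105). Kif7, the kinesin that organises the tip of the cilium and regulates Gli proteins, had 5.60 and 9.43 TPM in the double knockout, 19.8 and 16.7 TPM in LEF1cKO and 13.7 and 17.5 TPM in WT. Those closest to Shh were Abhd8 (0.105), RP23-384A11.5 (0.108) and Hspe1 (0.131), the last encoding a mitochondrial chaperonin subunit. Abhd8 had 5.24 and 4.83 TPM in the double knockout, 6.19 and 6.91 TPM in LEF1cKO and 10.8 and 10.6 TPM in WT.

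The rest of the pathway was described by 5 lists of its other genes. In LEF1cKO against WT, 0 of their tested genes passed by edgeR, DESeq2 or voom over all 6 libraries (1 of the other receptors fell without LEF1cKO replicate 2), and unadjusted p by edgeR was under 0.05 for 1 intracellular regulator and 1 target. Among 7 genes for other ligands, ligand processing and release, 1 fell and 0 rose in the double knockout against WT, where 37.6% of all tested genes were called. The gene that fell was Scube3, whose secreted protein aids release of the ligand, with 10.7 and 7.66 TPM in the double knockout and 16.7 and 18.4 TPM in WT (−1.10 ± 0.34, adjusted p = 0.0465). The call was lost without either WT library (0.115 and 0.162), without either double-knockout library (0.115 and 0.191) and with limma on log2(TPM + 1) (0.0792) or log2(TPM + 0.1) (0.0731). Of the 7 genes, 2 had a higher and 5 a lower estimate than in WT, and DESeq2 called 1 higher and 1 lower. Scube2, named here after its value was seen, was higher without overlap but not called by edgeR (1.93 ± 0.76, adjusted p = 0.0926). It had 12.5 and 14.6 TPM in the double knockout, 1 and 7.48 TPM in LEF1cKO and 3.2 and 3.28 TPM in WT. Against LEF1cKO 0 of 7 passed by edgeR or voom, 2 had an unadjusted p under 0.05, and DESeq2 called 1 higher and 1 lower. The other ligands were scarce: Ihh had 0.19 and 0.10 TPM in the double knockout, 0.08 and 0.14 TPM in LEF1cKO and 0.12 and 0.22 TPM in WT, and Dhh stayed between 1.45 and 3.25 TPM over all libraries. Against WT, 1 gene of the list rose and 1 fell without either LEF1cKO library, 1 rose and 0 fell without double-knockout replicate 2, and 0 passed in the other fits.

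Of 6 other receptors and surface proteins, 5 were tested, and in the double knockout 2 fell and 1 rose against WT, and 2 fell and 0 rose against LEF1cKO, too few genes to set against the 37.6% and 25.2% of all tested genes called. Gpr161, a ciliary receptor that restrains the pathway through cyclic AMP, fell by 0.57 ± 0.09 against WT (adjusted p = 0.00741, but 0.0570 and 0.0866 without WT replicates 1 and 2 and 0.0573 with limma on log2(TPM + 1)) and by 0.44 ± 0.09 against LEF1cKO (adjusted p = 0.0241). The second call held in 1 of the 6 fits, the one without LEF1cKO replicate 2, and adjusted p was 0.0538 to 0.116 in the others. It was also lost with limma on log2(TPM + 1) (0.0952) or log2(TPM + 0.1) (0.0802) and when only those 2 groups were fitted (0.0654). Gpc3, a glypican that competes with Ptch1 for the ligand, rose against WT by 0.90 ± 0.28 (adjusted p = 0.0473). It failed in each fit without a library (adjusted p of 0.0570 to 0.243) except the one without WT replicate 1, and also with a length offset (0.0521) and when only those 2 groups were fitted (0.0558). Against WT the falls numbered 1 without WT replicate 1, 0 without WT replicate 2, 1 without double-knockout replicate 1 and 2 without double-knockout replicate 2 or either LEF1cKO library. Against LEF1cKO they numbered 0 without either WT library, LEF1cKO replicate 1 or double-knockout replicate 1, and 1 without LEF1cKO replicate 2, where 1 gene rose, or double-knockout replicate 2. The co-receptors Cdon and Gas1 were not called: Cdon had 11.7 and 11.3 TPM in the double knockout, 2.55 and 8.18 TPM in LEF1cKO and 4.32 and 4.40 TPM in WT. Both double-knockout libraries thus lay above every other library for Cdon.

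Of 20 intracellular regulators, 7 fell and 1 rose in the double knockout against WT, with a median of −0.24. These 8 calls are 40% of the list, close to the 37.6% of all tested genes called. Prkaca, the catalytic subunit of protein kinase A, which primes Gli proteins for processing, fell by 0.66 ± 0.09 (adjusted p = 0.00541), and Prkar1a, its regulatory subunit, by 0.52 ± 0.12 (adjusted p = 0.0172). Evc and Efcab7, whose products act in 1 complex at the base of the cilium downstream of Smo, fell by 0.71 ± 0.12 (adjusted p = 0.00852) and 1.10 ± 0.24 (adjusted p = 0.0155). Efcab7 had 8.59 and 9.25 TPM in the double knockout, 9.98 and 10.63 TPM in LEF1cKO and 17.53 and 17.49 TPM in WT. It was thus below WT in both knockouts, although not called in LEF1cKO. Evc in LEF1cKO (34.35 and 32.14 TPM) was not below WT (29.63 and 30.66 TPM). Without WT replicate 2 all 4 calls were lost (adjusted p of 0.0634, 0.114, 0.0805 and 0.0869 in the order named). Prkar1a and Efcab7 were also lost without WT replicate 1 (0.126 and 0.0958), and Prkar1a, Evc and Efcab7 without double-knockout replicate 1 (0.0963, 0.0566 and 0.0599). The gene that rose was Ulk3, a kinase acting on Gli proteins in human cells, by 0.51 ± 0.16 (adjusted p = 0.0456), named here after its value was seen. The list's count was 2 falls without WT replicate 1, 0 without WT replicate 2, 1 without double-knockout replicate 1, 7 without double-knockout replicate 2 and 9 without either LEF1cKO library. The rise was absent in 4 of those fits, the ones without a WT or a double-knockout library.

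Against LEF1cKO, 5 of the 20 regulators fell and 1 rose, with a median of −0.28. That is 30% of the list, near the 25.2% of all tested genes called. Kif7 fell by 1.34 ± 0.28 (adjusted p = 0.0241) and Evc by 0.72 ± 0.12 (adjusted p = 0.0156). Prkaca fell by 0.44 ± 0.09 (adjusted p = 0.0230), and Dyrk2, a kinase known to phosphorylate Gli2 in human cells, by 0.75 ± 0.17 (adjusted p = 0.0294). Without LEF1cKO replicate 1 adjusted p was 0.101 for Kif7, 0.0626 for Evc, 0.0757 for Prkaca and 0.0825 for Dyrk2, and without double-knockout replicate 1 it was 0.0944, 0.0920, 0.114 and 0.153. Prkaca and Dyrk2 were also lost without WT replicate 1 (0.0767 and 0.0650) or 2 (0.0796 and 0.0652), and Dyrk2 without double-knockout replicate 2 (0.0730). Both were lost when only those 2 groups were fitted (0.0628 and 0.0572). The count of falls was 2 without either WT library, 0 without LEF1cKO replicate 1 or double-knockout replicate 1, 7 without LEF1cKO replicate 2 and 4 without double-knockout replicate 2. The rise, again of Ulk3 (0.61 ± 0.16, adjusted p = 0.0370), was met by 1 rise without LEF1cKO replicate 2 and by 0 in the other fits.

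Of 15 genes for the primary cilium, the organelle in which Smo meets the Gli proteins, 10 fell and 0 rose in the double knockout against WT, with a median of −0.46, where 37.6% of all tested genes were called and 19.6% fell. Ift80, of the transport complex that moves cargo outward, had 13.9 and 18.5 TPM in the double knockout, 28.5 and 25.8 TPM in LEF1cKO and 28.3 and 27.2 TPM in WT. The double-knockout libraries were both below all others, and Ift80 fell by 1.08 ± 0.12 against WT (adjusted p = 0.00366). Tulp3, which brings receptors such as Gpr161 into the cilium, fell by 0.95 ± 0.14 (adjusted p = 0.00575), and both genes passed in every fit without a library. Rab23, a small GTPase that restrains the pathway in mouse, fell by 0.86 ± 0.13 (adjusted p = 0.00599), lost without WT replicate 1 (0.0522). Ift122, of the complex for inward transport, fell by 0.84 ± 0.14 (adjusted p = 0.00749), lost without WT replicate 1 (0.0565), WT replicate 2 (0.0535) or double-knockout replicate 1 (0.0513). The count of falls was 2 and 3 without WT replicates 1 and 2, 3 and 6 without double-knockout replicates 1 and 2, and 11 without either LEF1cKO library. In those fits 13% and 9.54%, 14.7% and 27.5%, and 39% and 40.5% of all tested genes were called in either direction.

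Against LEF1cKO, 9 of the 15 cilium genes fell and 0 rose, with a median of −0.52, where 25.2% of all tested genes were called and 14.1% fell. Ift80 fell by 0.95 ± 0.12 (adjusted p = 0.0111), Ift122 by 0.91 ± 0.14 (adjusted p = 0.0126), Tulp3 by 0.88 ± 0.14 (adjusted p = 0.0130) and Rab23 by 0.78 ± 0.13 (adjusted p = 0.0142). Without double-knockout replicate 1, 0 of 15 passed, with adjusted p of 0.0777 for Ift80, 0.0819 for Ift122, 0.0780 for Tulp3 and 0.0808 for Rab23. Tulp3 was also lost without LEF1cKO replicate 1 (0.0513). The count of falls was 4 without either WT library, 3 and 10 without LEF1cKO replicates 1 and 2, and 5 without double-knockout replicate 2. Over all tested genes 10.7% and 10.3% were called without WT replicates 1 and 2, 7.96% and 29% without LEF1cKO replicates 1 and 2, and 13.9% without double-knockout replicate 2.

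Of 15 other genes known as Gli targets in various tissues, 12 were tested, and in the double knockout against WT 10 fell and 2 rose, with a median of −1.02, where 19.6% of all tested genes fell and 18.0% rose. Hsd11b2, which encodes a glucocorticoid-inactivating enzyme, had 0.42 and 1.10 TPM in the double knockout, 53.5 and 25.02 TPM in LEF1cKO and 49.9 and 43.1 TPM in WT. It fell by 6.06 ± 0.59 against WT (adjusted p = 0.00331). Foxe1, a forkhead factor, had 0.03 and 0.38 TPM in the double knockout, 15.7 and 5.57 TPM in LEF1cKO and 29.5 and 18.4 TPM in WT. The first of these rests on 2 expected counts, so no fold is given for Foxe1, which fell with an adjusted p of 0.00519. Ccnd2, a cyclin of the G1 phase, fell by 1.70 ± 0.22 (adjusted p = 0.00460) and Foxm1, a forkhead factor of dividing cells, by 1.04 ± 0.13 (adjusted p = 0.00455), and all 4 genes passed in every fit without a library. The genes that rose were Snai1 (1.68 ± 0.48, adjusted p = 0.0377) and Spp1 (1.41 ± 0.41, adjusted p = 0.0401), both under 4 TPM and named after their values were seen. The falls numbered 7 and 4 without WT replicates 1 and 2, 8 and 10 without double-knockout replicates 1 and 2, and 10 without either LEF1cKO library. The rises numbered 1 without WT replicate 1 or either LEF1cKO library and 0 in the other fits.

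Against LEF1cKO, 10 of the 12 tested targets fell and 1, Spp1, rose (1.49 ± 0.42, adjusted p = 0.0471), with a median of −1.01. Of all tested genes, 14.1% fell and 11.2% rose in that comparison. Hsd11b2 fell by 5.75 ± 0.59 (adjusted p = 0.0107), Ccnd1, another G1 cyclin, by 1.17 ± 0.17 (adjusted p = 0.0123), Bcl2, which guards against cell death, by 0.80 ± 0.10 (adjusted p = 0.0113) and Foxm1 too (−1.002 ± 0.13, adjusted p = 0.0113). Without double-knockout replicate 1, 0 of 12 passed, and adjusted p was 0.0777 for Hsd11b2, Ccnd1 and Bcl2 and 0.0780 for Foxm1. The falls numbered 7 and 6 without WT replicates 1 and 2, 6 and 7 without LEF1cKO replicates 1 and 2, and 9 without double-knockout replicate 2. Without LEF1cKO replicate 2, 1 target rose, and 0 rose in the other fits. Sox9, counted here as a target, is also the gene whose promoter drives the Cre.

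**Figure D3:**
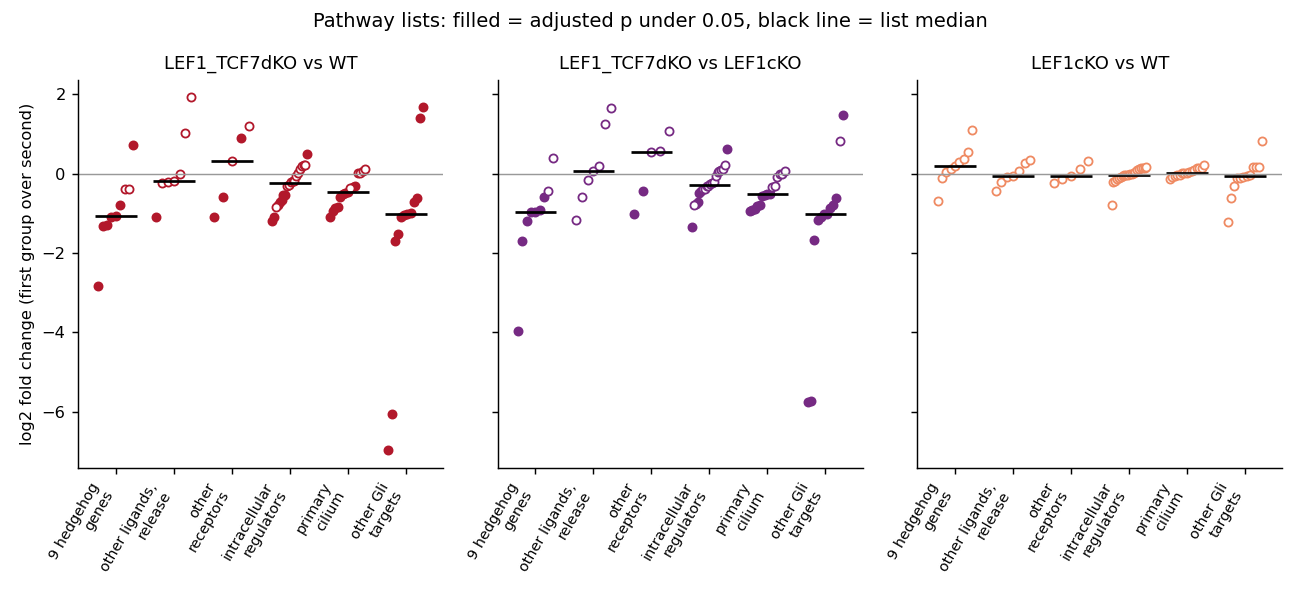
Log2 fold change (first-named group over second) of every tested gene in the 9 hedgehog genes and the 5 wider pathway lists, 1 panel per comparison; filled points passed an adjusted p of 0.05 and black lines are list medians. In the double knockout against WT the medians run from 0.32 (other receptors) to −1.07 (the 9 genes), and in LEF1cKO against WT every point is open.

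Many markers of other cells and of dividing cells also differed in the double knockout. Over all tested genes, 19.6% fell and 18.0% rose in the double knockout against WT. Against LEF1cKO, 14.1% of all tested genes fell and 11.2% rose. The 10 proliferation markers summed to 830.1 and 795 TPM in the double knockout, 2153 and 1703 TPM in LEF1cKO and 2131 and 2081 TPM in WT, and 10 of 10 fell in the double knockout against both. Against LEF1cKO 0 passed without double-knockout replicate 1 and 9 without replicate 2. The 9 markers of differentiated epidermis summed to 12150 and 11660 TPM in the double knockout, 3034 and 3079 TPM in LEF1cKO and 1316 and 1033 TPM in WT, and 8 rose in the double knockout against WT. In LEF1cKO against WT 2 of these 9 rose by edgeR, 6 by DESeq2 and 4 by voom, where edgeR called 0.224% of all tested genes higher. Fewer of the 9 rose in every fit that left out a library. For the hedgehog members that comparison had 0 calls by edgeR and 2 by DESeq2. All markers of these lists were above 0 in some library.

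The 10 markers of fibroblasts and dermal papilla summed to 1909 and 1586 TPM in the double knockout, 410 and 905 TPM in LEF1cKO and 332 and 165 TPM in WT. Of these, 8 rose in the double knockout against WT and 1, Vcan, fell; the rises numbered 3 without double-knockout replicate 1. The 8 immune markers summed to 998 and 951 TPM in the double knockout, 218 and 370.2 TPM in LEF1cKO and 135 and 50.7 TPM in WT, and 7 rose against WT (4 without double-knockout replicate 1). The 6 endothelial and mural markers summed to 78.9 and 16.3 TPM in the double knockout, 8.68 and 10.5 TPM in LEF1cKO and 8.36 and 6.35 TPM in WT, and 5 rose against WT (0 without either WT library, 2 without either LEF1cKO library, 1 without double-knockout replicate 1, 0 by limma voom over all 6 libraries). The 5 upper follicle markers summed to 2150 and 1472 TPM in the double knockout, 585 and 1169 TPM in LEF1cKO and 1052 and 991 TPM in WT, and 1 rose (0 without either WT library or double-knockout replicate 2, 4 and 3 without LEF1cKO replicates 1 and 2). The sums of the 7 melanocyte and Schwann cell markers overlapped between groups, with 341 and 529 TPM in the double knockout, 378 and 255 TPM in LEF1cKO and 586 and 400.2 TPM in WT, and 3 rose (1 without either WT library or double-knockout replicate 1, 2 without double-knockout replicate 2). The 4 Merkel cell markers summed to under 1 TPM in every library, with Atoh1 at 0 in all 6, and of the 2 tested 1 fell in the double knockout against WT (0 by DESeq2 and in every fit without a library except that without LEF1cKO replicate 2). In LEF1cKO against WT, median changes were 1.51 for the fibroblast list and 1.46 for the immune list, with 0 called in each. The fibroblast list pools dermal papilla with other fibroblasts, so its sum does not give a level for the papilla. Vcan, which fell, had 10.1 and 5.84 TPM in the double knockout and 23.3 and 20.4 TPM in WT. Corin, of the same list, did not rise, with 0.92 and 0.24 TPM in the double knockout and 1.36 and 0.42 TPM in WT. The dermal papilla is itself a known site of hedgehog response. The part of cell make-up and of cell division in the hedgehog differences was not tested.

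**Figure D4:**
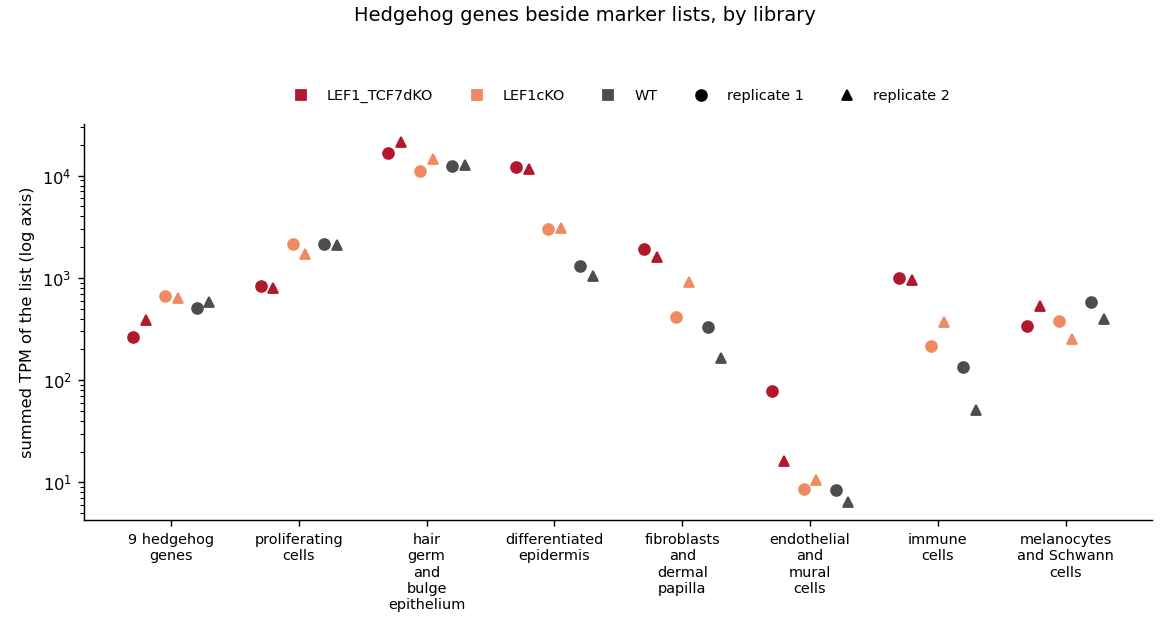
Summed TPM (log axis) of the 9 hedgehog genes and of marker lists in each library, with the double knockout left, LEF1cKO in the middle and WT right within each list; circles are replicate 1 and triangles replicate 2. The proliferation sum is lowest and the differentiated epidermis, fibroblast and immune sums are highest in the double knockout, which also has the lowest hedgehog sums (263 and 388 TPM).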

How the data were processed

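RNA from sorted hair germ cells was measured in 6 libraries, grouped by title. Alignment and quantification tools were Bowtie2 2.2.9 and RSEM 1.2.30 on mm10, per the submitters' processing notes. The sources used here do not give the annotation release or the strand setting. The deposited expected counts were estimated by the authors with RSEM, which splits shared reads between genes, and are not normalized. The deposited TPM values were scaled by the authors with RSEM to effective length and library, per the file headers; a deposited series table held the same TPM. FPKM values were deposited but not used. For genes over 200 nt, the deposited effective length was the length minus 50 nt. Rows for 92 spike-ins, all at 0, were dropped.

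After rounding, counts were tested in edgeR 4.0.16 (R 4.3.3; TMM, filterByExpr by group, quasi-likelihood F test, Benjamini-Hochberg at 0.05 over 19640 genes, all 6 libraries in 1 fit with 3 residual degrees of freedom). The test was checked on simulated data. A library total allows up to 0.0475 to 0.0741 CPM for a count of 0 (3 counts), counting error only. Alternatives were RLE factors, no filter, DESeq2 1.42.0, limma 3.58.1 (voom, log2(TPM + 1), log2(TPM + 0.1)), a length offset, only the groups compared, a replicate block and leaving out each library. In leave-one-out fits the remaining library of a group is taken to vary as the other groups do. Replicates differed beyond counting noise (chi-square per degree of freedom 65.8 in the double knockout, 88.8 in LEF1cKO and 23.7 in WT).

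The 9 genes and the lists were chosen with earlier results of these data known. Named were all members, the targeted genes, up to 4 called genes per wider list and comparison with the smallest p, and the 3 genes closest in pattern to Shh and to Gli1. One gene that the rule names is not reported here, though the counts of its lists include it. Genes reported outside this rule are named as such or serve as markers. Positions are from GENCODE M21 by Ensembl identifier (9 of 9 matched). Promoter windows were matched by symbol in the RefSeq table (6 of 9).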

Additional observations from a re-analysis of the deposited data

How the results depend on the processing

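For the double knockout against WT, 7389 genes and 7 members were called, and leaving out a library gave 1968 to 8333 genes and 3 to 7 members. Against LEF1cKO, 4952 genes and 7 members were called; fitting only those groups gave 2585 and 4, and leaving out a library gave 1 to 5973 and 0 to 7. For LEF1cKO against WT, 118 genes and 0 members were called; no filter gave 422 genes, DESeq2 603 genes and 2 members, and leaving out a library 78 to 138 genes and 0 members. The share of rises among those calls was 37.3%, against 51.4% with no filter, 58.9% by DESeq2, 24.1% by voom, 17.8% and 23.7% by limma on log2(TPM + 1) and log2(TPM + 0.1) and 19.3% with only the groups compared. The sign turned, with the cause not tested, for Gli1 (−0.0636 without LEF1cKO replicate 1; 0.26 at most) and Sufu (−0.0025 without LEF1cKO replicate 2; 0.0898 at most over fits without a library and 0.0933 over all alternatives) in LEF1cKO against WT. It also turned for Lef1 in the double knockout against LEF1cKO (0.0891 without LEF1cKO replicate 1; −0.71 at the lowest). Limma on log2(TPM + 0.1) moved the median of all genes in the double knockout against WT to 0.13; no member changed direction under another scaling.

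Nothing in the labels says that replicate numbers pair samples. The replicate 1 minus replicate 2 differences correlated at 0.0558 (double knockout and WT), −0.0276 (double knockout and LEF1cKO) and −0.0421 (LEF1cKO and WT) over 19640 genes. Little was therefore shared by replicate number, which does not settle whether libraries were paired. With a replicate block, 6435 genes and 7 members were called in the double knockout against WT, where Gpc3 was lost (adjusted p = 0.0593), 3635 and 6 against LEF1cKO, where Gli2 was lost (adjusted p = 0.0526) and, of the other named genes, Dyrk2 (0.0501), and 80 and 0 in LEF1cKO against WT. With 2 libraries a group, small differences such as those of Sufu and Gli2 against WT cannot be settled.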
